A study of Mus musculus with 6 samples.

Results

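The genes described here are 39 immediate-early and glucocorticoid-responsive genes of the mouse heart, out of 19505 genes that had a symbol among the 22206 probe sets tested. They were listed by name, and each was read from the probe set with its symbol that had the highest mean over 6 arrays. The list was chosen by name with the measured differences between the genotypes and between 2 series of animal numbers already known, so every difference of these genes in both comparisons is a description. Where genes past a p-value are counted, the count describes the list beside the share of all probe sets and supports nothing about these genes. Total RNA of 6 hearts from C57/BL6 mice at 2 months of age was hybridised to Affymetrix Clariom S Mouse arrays, 1 array per heart, to compare hearts without *Col1a2*, which encodes the second chain of type I collagen, with heterozygous hearts. The *Col1a2+/-* group (HET) held hearts 2769, 3201 and 3294, and the *Col1a2-/-* group (KO) held hearts 2767, 2770 and 3200. Both groups carried at least 1 germline "knockout first" allele of *Col1a2*, an insertion present in every cell of the animal, and no wild-type heart was on the arrays. The tissue is whole heart in the labels and whole ventricles in the methods. The animal numbers in the titles fall into series 27xx (hearts 2769, 2767 and 2770) and series 32xx (hearts 3201, 3294 and 3200). Nothing in the labels says what the series are, and each holds both genotypes.

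Immediate-early genes are transcribed within minutes of a stimulus from factors that are already in the cell, such as SRF and CREB, and need no new protein for it. Many encode transcription factors, AP-1 and EGR among them, and others encode inhibitors that end the signal. Glucocorticoids act through a nuclear receptor, which raises *Fkbp5*, *Per1*, *Tsc22d3* and other targets in the heart and many other tissues. The metallothioneins respond both to metals and to glucocorticoids, and several genes of the list, such as *Dusp1* and *Zfp36*, are reached by both routes.

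RefSeq promoters of build GRCm38.p6, each running from 250 bases before to 50 bases after the annotated start, were matched by symbol for 34 of the 39 genes, with 48 promoters in all. *Egr1*, *Egr3*, *Ier2*, *Cebpd* and *Myc* had no match. Printed here are the 250 bases before the start of 4 genes, 5′ to 3′ on the gene's strand. *Zfp36* and *Ddit4* are shown as the genes that differed most between the animal-number series, *Mt2* for its repeated motif, and *Fos* as the classic immediate-early gene, whose level differed little. Capitals mark the CArG box (CC, 6 of A or T, GG) and the EGR site GCGNGGGCG in *Zfp36* (chr7:28379229-28379478, minus strand), the cAMP response element core TGACG and the TATA box TATAAA in *Fos* (chr12:85473640-85473889, plus strand), and the metal response element TGCNCNC in *Ddit4* (chr10:59951771-59952020, minus strand) and *Mt2* (chr8:94172368-94172617, plus strand).
Zfp36: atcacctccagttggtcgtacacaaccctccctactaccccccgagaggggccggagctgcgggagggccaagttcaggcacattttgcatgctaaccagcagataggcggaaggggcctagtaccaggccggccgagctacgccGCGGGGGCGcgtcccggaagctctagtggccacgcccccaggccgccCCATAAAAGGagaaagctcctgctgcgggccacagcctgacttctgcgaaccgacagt
Fos: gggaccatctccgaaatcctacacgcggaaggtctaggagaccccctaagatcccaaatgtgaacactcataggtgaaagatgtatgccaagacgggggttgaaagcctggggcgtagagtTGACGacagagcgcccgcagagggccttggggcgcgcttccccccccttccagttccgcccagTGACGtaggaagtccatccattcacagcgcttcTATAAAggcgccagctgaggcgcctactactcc
Ddit4: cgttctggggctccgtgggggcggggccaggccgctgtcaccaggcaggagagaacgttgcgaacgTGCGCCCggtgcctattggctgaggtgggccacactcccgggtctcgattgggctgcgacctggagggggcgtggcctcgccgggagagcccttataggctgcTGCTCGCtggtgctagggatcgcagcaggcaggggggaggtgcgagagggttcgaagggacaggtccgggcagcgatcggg
Mt2: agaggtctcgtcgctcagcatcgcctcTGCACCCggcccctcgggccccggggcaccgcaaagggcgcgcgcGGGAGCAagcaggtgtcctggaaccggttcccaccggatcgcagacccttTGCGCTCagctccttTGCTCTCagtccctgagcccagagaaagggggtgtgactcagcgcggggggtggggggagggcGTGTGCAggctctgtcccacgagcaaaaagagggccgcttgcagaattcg
All motifs were searched on both strands of 32851 promoters of 27025 genes, and a gene was counted where any of its promoters held a match. The CArG box, which SRF binds, was found in promoters of 2 of the 34 genes, *Zfp36* and *Egr2*, against 1.81% of all genes. The cAMP response element core was found in promoters of 17 genes, among them *Fos*, *Fosb*, *Junb*, *Nr4a1*, *Per1* and *Dusp1*, against 23.0% of all genes. Its full form TGACGTCA, which contains the core, was found for *Dusp1* and *Btg2* against 2.03% of all genes. The EGR site was found for 10 of the 34 genes (6.27% of all genes), the E-box CACGTG for 10 (8.09%), the TATA box for 7 (15.7%) and the AP-1 site TGANTCA for 3 (8.97%). The metal response element is a loose motif, found for 27 of the 34 genes against 53.6% of all genes. *Mt2* held 6 matches of it within its promoter, 5 of them in the stretch printed, and 0.697% of all promoters held 5 or more. The motif AGAACA, one arm of the palindrome that the glucocorticoid receptor binds, was found for *Sgk1* and *Tsc22d3*, against 21.3% of all genes. A match is a run of letters and does not show that a factor binds there.

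The arrays were alike, with medians of the log2 signal between 6.64 and 6.67 and Pearson's r across probe sets, which are not independent replicates, between 0.988 and 0.992. *Col1a2*, read first to check the labels, was lower in KO hearts (6.86, 6.84 and 6.48) than in HET hearts (9.47, 9.06 and 9.18), with a log2 difference of -2.51 (SE 0.19, adjusted p = 0.00626 from limma), and was the single probe set (0.00450%) to pass the adjusted p by genotype. Signals under 5.97 on the log2 scale were taken as dim, a limit below which 95% of 1452 probe sets of olfactory, vomeronasal and taste receptor genes lay, and 37 of the 39 genes had a mean above it. One HET heart, 3294, stood apart from the rest. Its Y-linked *Uty* was at 2.65 while the other hearts lay between 11.58 and 11.90. The mean of 3 Y-linked genes was 3.81 there and 10.56 to 10.93 elsewhere. The labels give no sex, but by these genes heart 3294 reads as female and the other hearts as male. Sex is therefore unbalanced in both comparisons, with the female heart in the HET group and in series 32xx. All 7 atrial myocyte markers were highest in heart 3294, where their mean log2 level was 13.78, against 9.14 to 11.04 in the other 5 hearts. *Bmp10* was at 13.89 there and at 3.53 to 5.35 elsewhere, and the brown fat gene *Ucp1* was at 8.33 and at 3.60 to 4.30 elsewhere. Values without this heart are therefore given beside many of the differences between the series of the 39 genes, but not beside every result. Cardiomyocyte markers (10 of 10 above the dim limit) had mean levels of 18.23 to 18.30 in all hearts.

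Between the animal-number series, 6 genes grouped here as targets of the glucocorticoid receptor had higher levels in series 32xx than in series 27xx. So did the metallothioneins and several feedback inhibitors, while the AP-1 genes did not separate as a group. With genotype in the fit, 15 of the 39 genes were higher and 1 was lower in series 32xx by the unadjusted p of limma (under 0.05, here termed called). Over all probe sets, 3.12% were higher and 3.21% lower by the same rule, 6.33% in all. The 3 hearts of one series lay wholly above or below those of the other for 22 of the 39 genes, and for 12.5% of all probe sets. Since the genes were listed with this contrast known, nothing is read from these shares. No probe set on the array passed an adjusted p of 0.05 from limma (0.00%), and 1406 passed an unadjusted p of 0.05. Differences are given on the log2 scale as series 32xx minus 27xx, 3 hearts against 3, each with the standard error (SE) of the fit. Their median was 0.36 over the 39 genes and -0.01 over all probe sets. In whole-heart RNA, fewer cells of a type and less RNA per cell cannot be told apart.

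**Figure D1:**
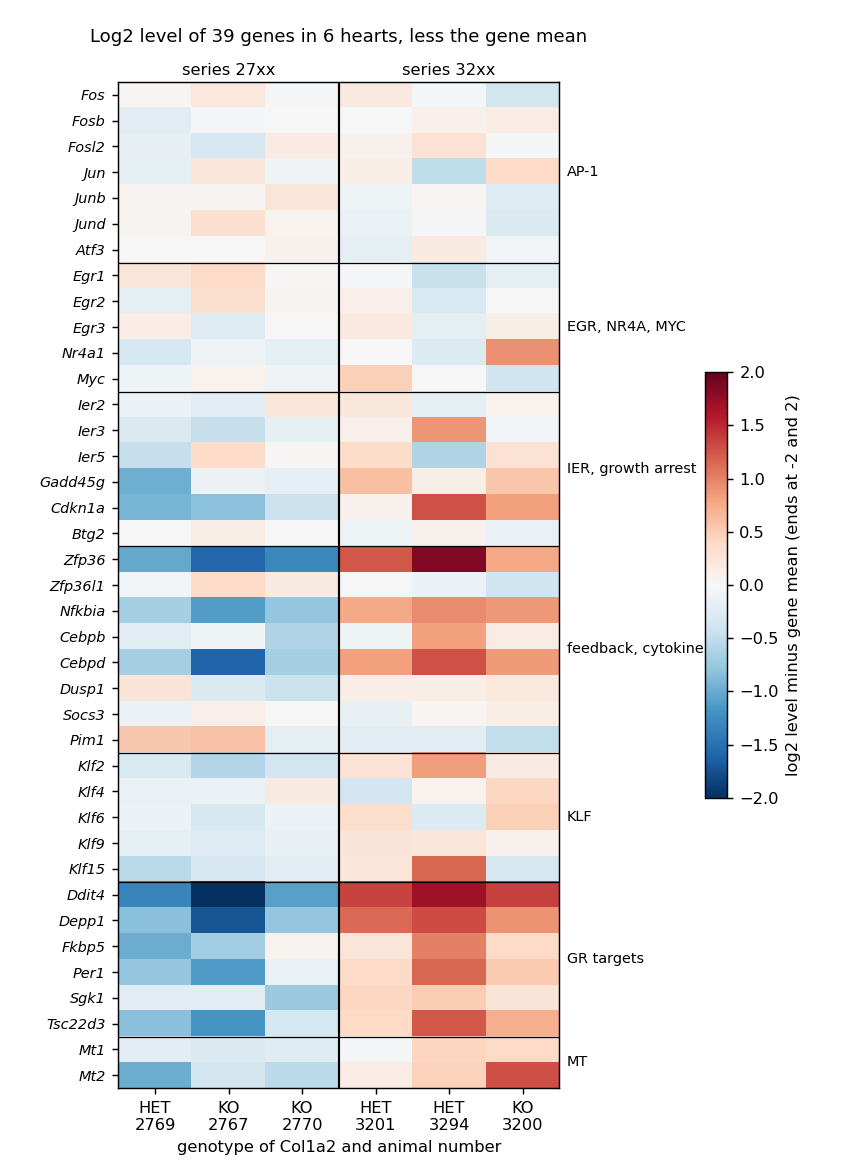
Log2 level of each of the 39 genes (rows, by role) in each heart (columns, by animal-number series and genotype), less the mean of the gene over 6 hearts. Red is above and blue below the gene mean. Rows of glucocorticoid receptor (GR) targets, metallothioneins (MT), *Zfp36*, *Nfkbia*, *Cebpd* and *Cdkn1a* are blue in the 3 left columns and red in the 3 right ones, with the exception of *Fkbp5* in heart 2770 and *Mt1* in heart 3201, and most AP-1 rows are pale. *Ddit4* in heart 2767 lies at the end of the colour scale.

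*Ddit4*, which encodes an inhibitor of the growth kinase complex mTORC1 and is induced by glucocorticoids, lack of oxygen and DNA damage, had the largest difference of the list. Its log2 level was 8.55 in HET heart 2769 and 7.85 and 8.78 in KO hearts 2767 and 2770, against 11.22 and 11.57 in HET hearts 3201 and 3294 and 11.24 in KO heart 3200. The series did not overlap, and within series 32xx the KO heart lay between the HET hearts. The log2 difference was 2.89 (SE 0.27), a 7.40-fold higher signal in series 32xx, and it was 2.85 between HET hearts and 2.92 between KO hearts. Without heart 3294 it was 2.82. Its promoter, printed above, held 2 matches of the loose metal response element.

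*Depp1*, a gene induced by FOXO factors and linked to autophagy, followed the same order. It was at 10.36 (HET 2769), 9.47 (KO 2767) and 10.43 (KO 2770) in series 27xx and at 12.34 (HET 3201), 12.51 (HET 3294) and 12.10 (KO 3200) in series 32xx. All 3 hearts of series 32xx were higher, by 2.11 on the log2 scale (SE 0.27), or 2.08 without heart 3294. *Tsc22d3* encodes GILZ, a leucine zipper protein through which glucocorticoids dampen NF-κB and AP-1. It was at 11.90, 11.55 and 12.38 in hearts 2769, 2767 and 2770, and at 13.13, 13.97 and 13.45 in hearts 3201, 3294 and 3200. The series did not overlap, heart 3294 was highest, and the difference was 1.56 (SE 0.30), or 1.37 without that heart.

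*Fkbp5* encodes a co-chaperone that lowers the affinity of the glucocorticoid receptor for its hormone. Its levels were 12.08, 12.38 and 13.14 in hearts 2769, 2767 and 2770 and 13.32, 14.08 and 13.46 in hearts 3201, 3294 and 3200. The gap between the series was narrow, since KO heart 2770 came close to HET heart 3201. The difference was 1.16 (SE 0.33), with 1.62 between HET hearts and 0.70 between KO hearts, and it was 0.93 without heart 3294. *Per1*, a repressor of the circadian clock with a glucocorticoid-responsive promoter, was at 8.69, 8.33 and 9.33 in hearts 2769, 2767 and 2770 and at 9.84, 10.61 and 9.99 in hearts 3201, 3294 and 3200. The hearts did not overlap between the series, and the difference was 1.35 (SE 0.32), or 1.16 without heart 3294. *Sgk1*, a kinase that controls ion channels and transporters, was at 11.01, 11.02 and 10.50 in hearts 2769, 2767 and 2770 and at 11.65, 11.74 and 11.49 in hearts 3201, 3294 and 3200. It had the smallest difference of these 6 targets, 0.70 (SE 0.20), and the series did not overlap either. Over these 6 targets the median difference was 1.46, and it was 1.27 without heart 3294. All 6 were among the genes called higher in series 32xx, and 5 of 6 when heart 2769 or heart 3200 was left out. The group was formed with earlier results of these data known. *Klf9*, *Klf15* and *Dusp1*, which glucocorticoids also act on, were placed in other groups and were not called (differences of 0.36, 0.59 and 0.23).

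**Figure D2:**
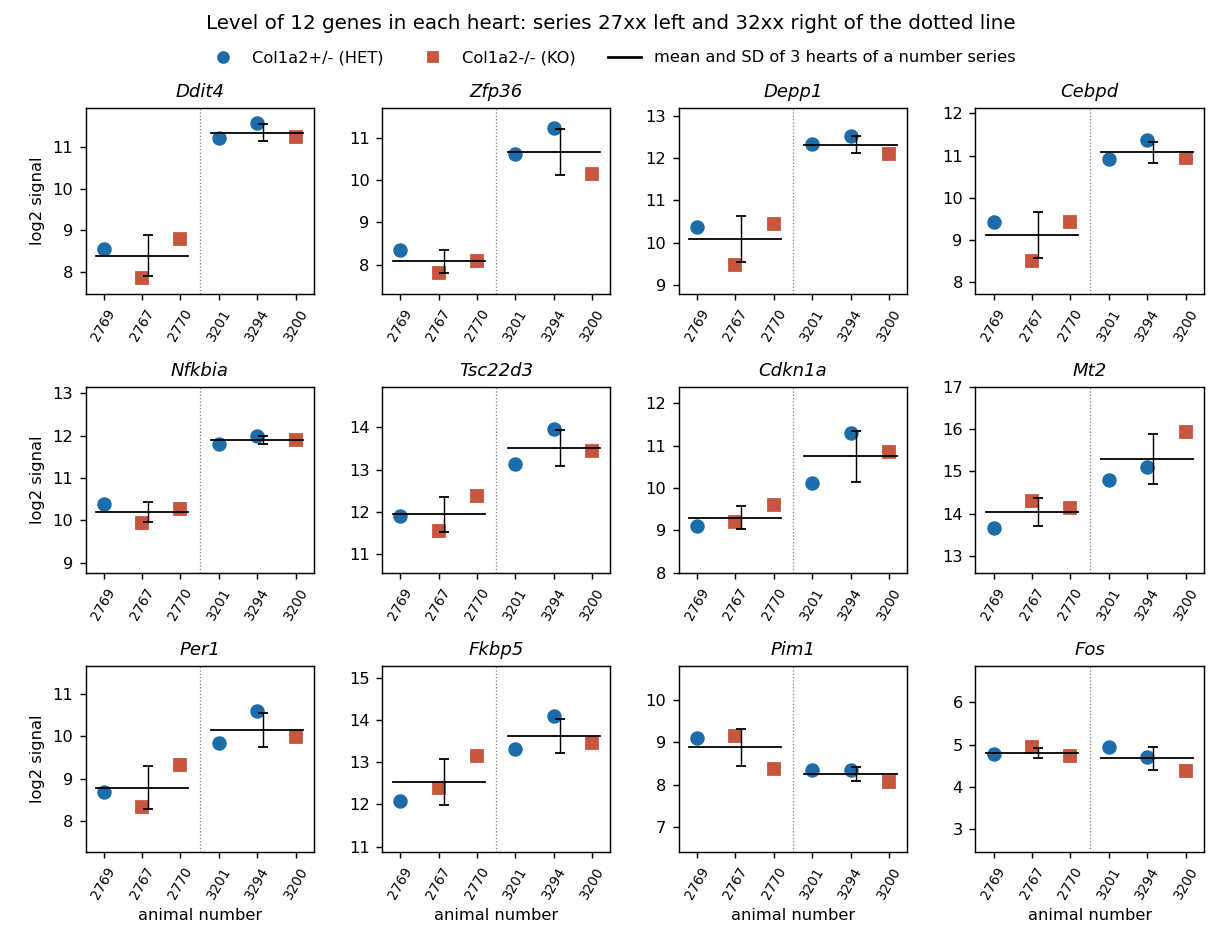
Log2 signal (y axis, its own range in each panel) of 12 of the genes in each heart (x axis, animal number). Circles are HET and squares KO hearts, lines are the means and bars the SD of the 3 hearts of a series. *Ddit4* and *Zfp36* show the widest gaps between the series, *Fkbp5* a narrow one, *Pim1* a lower level in series 32xx, and *Fos* overlapping levels of 4.38 to 4.95.

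Both metallothioneins, small proteins that bind zinc and copper, were higher in series 32xx. *Mt2* was at 13.66, 14.29 and 14.14 in hearts 2769, 2767 and 2770 and at 14.80, 15.11 and 15.94 in hearts 3201, 3294 and 3200. The series did not overlap, and the highest level was in the KO heart of series 32xx, whereas the 6 receptor targets above were all highest in HET heart 3294. The difference was 1.51 (SE 0.19), and 1.47 without heart 3294. *Mt1* was at 17.85, 17.78 and 17.84 in hearts 2769, 2767 and 2770 and at 18.03, 18.50 and 18.45 in hearts 3201, 3294 and 3200. The hearts of series 27xx lay close together and below all others, and the difference was 0.53 (SE 0.20), or 0.45 without heart 3294. Its call was lost when any heart other than 3201 was left out.

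Among the genes that end a signal, *Zfp36* and *Nfkbia* separated the series widely. *Zfp36* encodes tristetraprolin, which binds AU-rich elements of cytokine mRNAs and speeds their decay. It was at 8.35, 7.80 and 8.08 in hearts 2769, 2767 and 2770 and at 10.62, 11.23 and 10.15 in hearts 3201, 3294 and 3200. The KO hearts were lower than the HET hearts within each series, and the series were far apart, with a difference of 2.39 (SE 0.23), or 5.26-fold, and 2.24 without heart 3294. *Nfkbia*, which encodes the inhibitor that holds NF-κB in the cytoplasm, was at 10.39, 9.93 and 10.27 in hearts 2769, 2767 and 2770. It was at 11.81, 11.99 and 11.91 in hearts 3201, 3294 and 3200, so that the hearts of series 32xx lay close together with no overlap. The difference was 1.66 (SE 0.19).

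*Cebpd*, a transcription factor of the acute phase response, was at 9.43, 8.50 and 9.44 in hearts 2769, 2767 and 2770 and at 10.92, 11.37 and 10.95 in hearts 3201, 3294 and 3200. The series were separate, and the difference was 1.85 (SE 0.28), or 1.78 without heart 3294. Its relative *Cebpb* was at 7.06, 7.19 and 6.68 in hearts 2769, 2767 and 2770 and at 7.19, 8.10 and 7.43 in hearts 3201, 3294 and 3200. These hearts barely separated, heart 3294 alone was well above the rest, and the difference of 0.54 (SE 0.28) was 0.34 without it. *Pim1*, a kinase induced by cytokines through STAT factors, was the single gene called lower, at 9.11, 9.15 and 8.37 in hearts 2769, 2767 and 2770 and 8.35, 8.34 and 8.07 in hearts 3201, 3294 and 3200. Its difference was -0.73 (SE 0.23), and KO heart 2770 lay next to the hearts of series 32xx. *Dusp1*, a phosphatase of the MAP kinases, ranged from 14.73 to 15.42, *Zfp36l1*, a relative of *Zfp36*, from 10.45 to 11.23, and *Socs3*, an inhibitor of cytokine receptors, from 4.57 to 4.85, below the dim limit. The hearts of the series overlapped for all 3.

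Of the 6 IER and growth arrest genes, *Cdkn1a* and *Gadd45g* were called higher in series 32xx. *Cdkn1a* encodes p21, an inhibitor of cyclin-dependent kinases. It was at 9.09, 9.20 and 9.60 in hearts 2769, 2767 and 2770 and at 10.11, 11.30 and 10.85 in hearts 3201, 3294 and 3200. There was no overlap, and the difference of 1.53 (SE 0.32) was 1.26 without heart 3294. *Gadd45g*, a stress protein that binds p21 and activates p38 and JNK signals, was at 7.38, 8.24 and 8.20 in hearts 2769, 2767 and 2770 and at 8.96, 8.47 and 8.91 in hearts 3201, 3294 and 3200. HET heart 2769 was the lowest and the difference was 1.02 (SE 0.23), falling to 0.69 without that heart, when the gene was no longer called. *Ier3*, a regulator of apoptosis, was at 10.92, 10.76 and 11.03 in hearts 2769, 2767 and 2770 and at 11.32, 12.10 and 11.16 in hearts 3201, 3294 and 3200. The hearts did not overlap and heart 3294 was far above the others, and the difference of 0.53 (SE 0.26) was 0.33 without it. *Ier2* and *Ier5*, nuclear proteins induced by growth factors, ranged from 6.92 to 7.38 and from 7.92 to 8.91, and *Btg2*, an antiproliferative gene, from 9.29 to 9.57, all with overlap.

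Of the Krüppel-like factors, *Klf2*, known in endothelium for its response to flow, was called higher. It was at 7.99, 7.70 and 7.91 in hearts 2769, 2767 and 2770 and at 8.56, 9.12 and 8.45 in hearts 3201, 3294 and 3200. The series did not overlap, with a difference of 0.75 (SE 0.21) that was 0.61 without heart 3294. *Klf9*, a target of the glucocorticoid receptor, was at 13.39, 13.30 and 13.42 in hearts 2769, 2767 and 2770 and at 13.82, 13.81 and 13.65 in hearts 3201, 3294 and 3200. The hearts were also separate, but by a small difference of 0.36 (SE 0.17). *Klf15*, which is induced by glucocorticoids in muscle and heart, was at 9.33, 9.53 and 9.65 in hearts 2769, 2767 and 2770 and at 10.11, 11.01 and 9.54 in hearts 3201, 3294 and 3200. KO heart 3200 was level with series 27xx, so that the difference was 1.22 between HET hearts and -0.05 between KO hearts, and the fitted value of 0.59 (SE 0.34) was 0.30 without heart 3294. *Klf4*, a factor of endothelium, smooth muscle and macrophages, ranged from 7.57 to 8.37 and *Klf6*, an early gene of tissue injury, from 10.97 to 11.77, both with overlap.

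The AP-1 genes differed little between the series. *Fos*, the classic immediate-early gene, lay between 4.38 and 4.95, below the dim limit in every heart, so that its levels carry little information. *Fosb* was at 6.26, 6.44 and 6.47 in hearts 2769, 2767 and 2770 and at 6.48, 6.57 and 6.63 in hearts 3201, 3294 and 3200, a separation by 0.22 (SE 0.17). *Junb* was at 7.26, 7.25 and 7.44 in hearts 2769, 2767 and 2770 and at 7.10, 7.22 and 6.94 in hearts 3201, 3294 and 3200. *Jund*, an AP-1 subunit that is present without a stimulus, was at 11.53, 11.79 and 11.55 in hearts 2769, 2767 and 2770 and at 11.34, 11.46 and 11.19 in hearts 3201, 3294 and 3200. Both *Jun* relatives had their 3 lower levels in series 32xx, with differences of -0.25 (SE 0.18) and -0.30 (SE 0.18), neither of them called. *Jun* ranged from 9.91 to 10.80, *Fosl2*, a FOS relative, from 7.14 to 7.78, and *Atf3*, a stress-induced partner of JUN, from 8.60 to 8.98, and the hearts overlapped for each. None of the 7 AP-1 genes was called, and their median difference was -0.05.

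*Egr1*, a zinc finger factor of the early response, was at 8.59, 8.74 and 8.38 in hearts 2769, 2767 and 2770 and at 8.32, 7.91 and 8.17 in hearts 3201, 3294 and 3200. It had no overlap and lay in the opposite direction to the receptor targets, with a difference of -0.43 (SE 0.20) that was not called, and -0.34 without heart 3294. Its relative *Egr2* ranged from 6.96 to 7.58, and *Egr3*, a further zinc finger factor with 3 probe sets on the array, from 6.98 to 7.43 in the brightest of them. Another *Egr3* probe set ranged from 6.54 to 7.32 and the last from 2.81 to 3.51, below the dim limit. The probe sets thus differ on whether *Egr3* lies above that limit, and both of the brighter ones are named as unmapped. *Egr3* is counted among the 37 genes above the limit by the brightest of them. *Nr4a1*, an orphan nuclear receptor of the early response, was at 6.80, 7.06 and 6.96 in hearts 2769, 2767 and 2770 and at 7.17, 6.89 and 8.07 in hearts 3201, 3294 and 3200. The high value was that of KO heart 3200 alone. The difference was 0.64 (SE 0.23), called higher although the series overlapped, and it was 0.23 without heart 3200. The call was lost without heart 3200, 2767 or 2770. *Myc*, a growth factor-induced transcription factor, ranged from 6.93 to 7.80 with overlap.

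**Figure D3:**
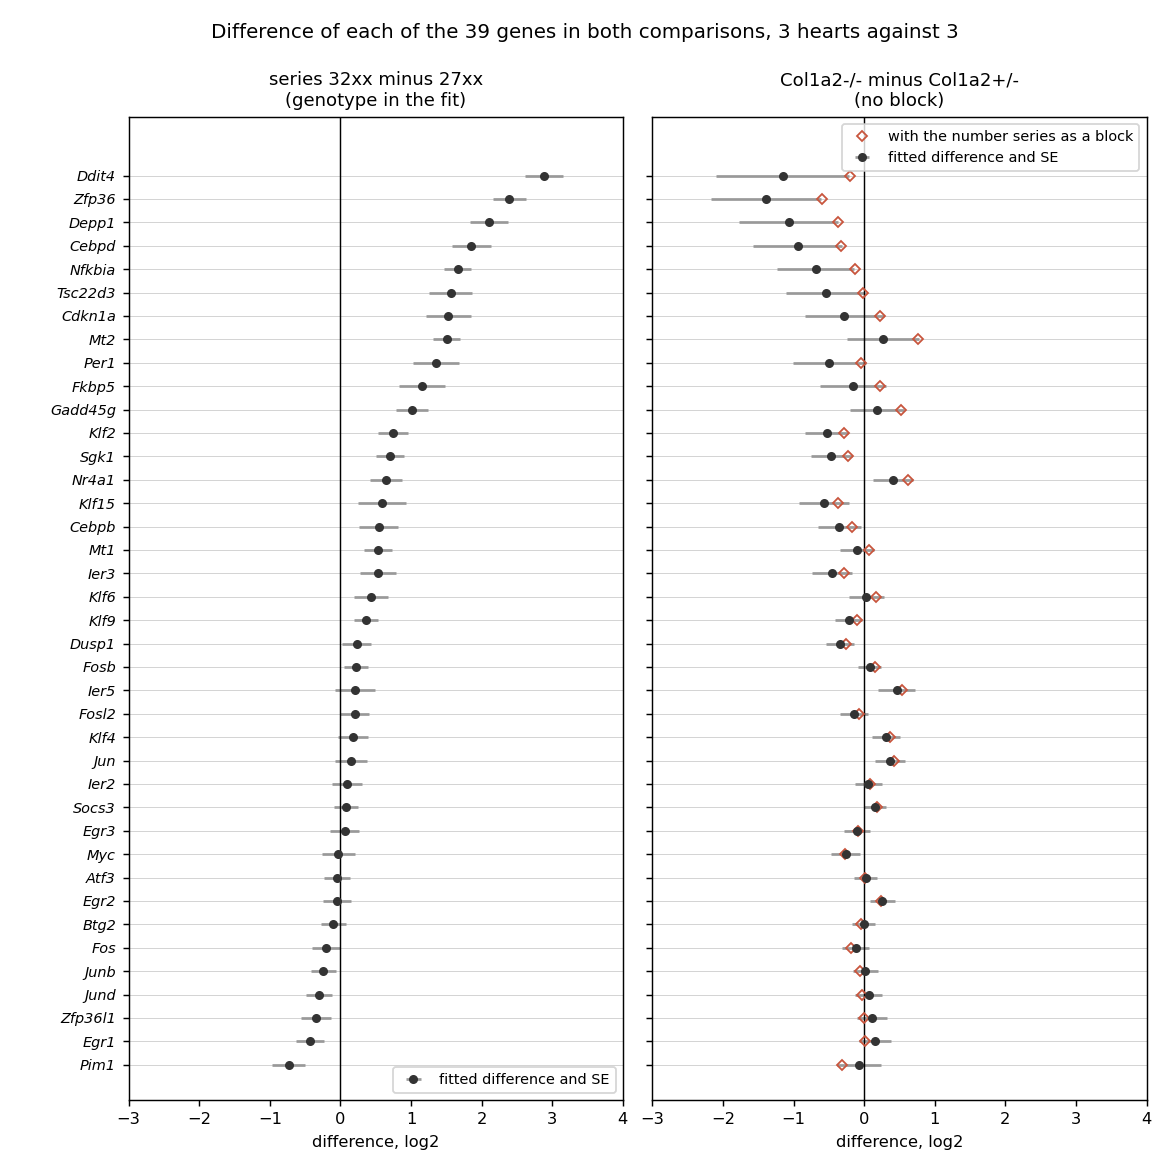
Fitted log2 difference (x axis) of each of the 39 genes (y axis, ordered by the left panel), series 32xx minus 27xx on the left and KO minus HET on the right. Points are fitted differences with bars of 1 SE, and open diamonds give the genotype difference with the series as a block. The left panel runs from -0.73 for *Pim1* to 2.89 for *Ddit4*, and on the right *Zfp36*, *Ddit4* and *Depp1* lie below -1 without the block and at -0.60, -0.19 and -0.37 with it.

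Between the genotypes, none of the 39 genes was called, and the genes with the largest KO minus HET differences were those that separated the series. By the unadjusted p of limma, 0 of 39 genes were called, against 5.45% of all probe sets, and the genotypes did not overlap for 0 of 39 genes, against 10.6% of all. Student's t-test, which the methods name for 2-group comparisons in general, called 0 of 39 as well. For the arrays the methods name Transcriptome Analysis Console and iPathwayGuide. The median difference was -0.10 over the 39 genes, with 16 means higher and 23 lower in KO hearts, and -0.00 over all probe sets. *Zfp36* had a difference of -1.39 (SE 0.78), *Ddit4* of -1.16 (SE 0.94) and *Depp1* of -1.07 (SE 0.70). The HET group holds 2 hearts of series 32xx and the KO group 1, so by arithmetic a higher level in series 32xx lowers the KO mean relative to the HET mean, on top of any difference between the genotypes within the series. With the series as a block the 3 differences were -0.60, -0.19 and -0.37. Within the series, KO minus HET was -0.41 in 27xx and -0.78 in 32xx for *Zfp36*, -0.23 and -0.16 for *Ddit4*, and -0.41 and -0.33 for *Depp1*. Over the 6 receptor targets the median was -0.52 without the block and -0.12 with it.

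The block brought other genes forward. With it 4 of the 39 genes were called, *Mt2*, *Nr4a1* and *Gadd45g* higher and *Zfp36* lower in KO hearts, against 5.14% of all probe sets. *Mt2* differed by 0.77 with the block and by 0.27 without it, and KO minus HET was 0.55 in series 27xx and 0.98 in series 32xx. *Nr4a1* differed by 0.62 with the block, from 0.21 and 1.04 within the series, and *Gadd45g* by 0.52, from 0.84 and 0.19. Each difference within a series rests on 1 heart of one genotype, HET 2769 in 27xx and KO 3200 in 32xx. Heart 3200 alone had the high *Nr4a1* level (8.07) and heart 2769 alone the low *Gadd45g* level (7.38). The count of genes called without the block also turned on single hearts. Without HET heart 2769, the single HET heart of series 27xx, 9 genes were called lower in KO hearts, *Zfp36*, *Ddit4*, *Depp1*, *Nfkbia* and *Cebpd* among them. Without KO heart 3200, the single KO heart of series 32xx, 8 were called lower. In both cases one genotype was left with hearts of 1 series only. Without HET heart 3201, *Jun* and *Ier5* were called higher in KO hearts, and without heart 3294, 2767 or 2770 none was called.

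The 39 genes differed among themselves in how far they varied over the hearts. For 18 of them (46.2%) the range over 6 hearts was at least 1 on the log2 scale, against 18.7% of all probe sets. Of the 39, 14 lay above the 95th percentile of that range, while *Btg2* and *Socs3* varied least, with ranges of 0.28. The range takes in the series difference, which was known when the genes were listed. Only 12816 of the 22206 probe sets were above the dim limit, against 37 of the 39 genes. Nothing is read from these shares. Heart 3294 held the highest level of 17 genes (20.2% of all probe sets had their highest level there), and KO heart 2767 the lowest level of 15 genes (15.8% of all). The mean of the 6 receptor targets, as a deviation from the gene means, was -1.16 in heart 2767, -0.83 in 2769 and -0.50 in 2770, and 0.65 in 3201, 0.69 in 3200 and 1.15 in 3294. For these 6 genes hearts 3201 and 3200, of different genotype, were level, but for the metallothioneins they were at 0.05 and 0.83. With heart 3294 left out, 15 genes were called higher and 1 lower in series 32xx, against 6.61% of all probe sets in either direction. Of the 16 genes called, 9 were called whichever heart was left out: *Ddit4*, *Zfp36*, *Nfkbia*, *Depp1*, *Mt2*, *Cebpd*, *Tsc22d3*, *Cdkn1a* and *Per1*. *Fkbp5*, *Klf2* and *Gadd45g* were not called without heart 2769, *Sgk1* not without heart 3200, and *Pim1* not without either of these.

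**Figure D4:**
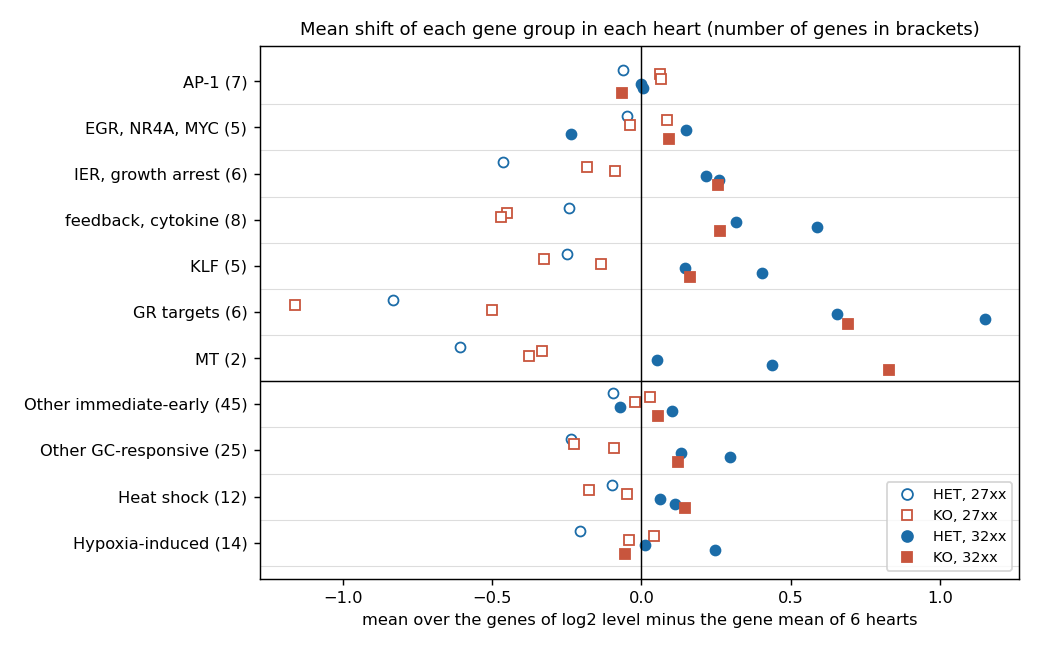
Mean over the genes of a group (y axis, with the number of genes) of the log2 level less the gene mean over 6 hearts (x axis), for each heart. Circles are HET and squares KO hearts, open symbols series 27xx and filled symbols series 32xx. The receptor targets run from -1.16 to 1.15 and the AP-1 genes from -0.07 to 0.06.

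Lists of further genes of these pathways were written from their known roles, with earlier results of these data known. Their counts are a description beside the share of all probe sets, of which 3.12% were called higher and 3.21% lower in series 32xx. Of 45 other immediate-early genes, 8 were called higher and 6 lower in series 32xx, with a median of 0.02. *Errfi1*, a feedback inhibitor of the EGF receptor, differed by 1.33 (SE 0.23) and *Csrnp1*, a nuclear protein of the early response that was below the dim limit in the hearts of series 27xx, was at 6.65 to 7.01 in series 32xx, while *Plk2*, a polo-like kinase, differed by -1.08 (SE 0.18) and *Bhlhe40*, a repressor of clock genes, by -0.94 (SE 0.19). Of 25 other glucocorticoid-responsive genes, 5 were higher and 1 lower, with a median of 0.26. *Rasd1*, first known as a dexamethasone-induced RAS protein, was at 4.96, 4.90 and 4.89 in hearts 2769, 2767 and 2770 and at 6.47, 7.29 and 6.37 in hearts 3201, 3294 and 3200, all 3 of them higher, with the hearts of series 27xx below the dim limit. *Per2* of the clock differed by 1.30 (SE 0.36), *Rgs2*, which dampens G protein signals, by 1.11 (SE 0.27) and *Fbxo32*, a ubiquitin ligase of muscle wasting, by 0.76 (SE 0.22). Of the receptor itself and its cofactors, 0 of 11 genes were called. *Nr3c1*, the glucocorticoid receptor, was named after its values were seen, and was at 9.37, 9.35 and 9.31 in hearts 2769, 2767 and 2770 and 9.65, 9.52 and 9.90 in hearts 3201, 3294 and 3200.

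Of 15 transcription factors and kinases that act upstream of immediate-early genes, 1 was called between the series, the repressor gene *Elk3*, at -0.68 (SE 0.21). Of 12 heat shock genes 1 was called, *Hsph1*, higher by 0.54 (SE 0.16). These shares, 6.67% and 8.33%, were near the 6.33% of all probe sets. Among 14 genes induced by lack of oxygen, 2 were called higher, *Pfkfb3* by 0.67 (SE 0.20) and *Bnip3* by 0.47 (SE 0.19). Clock genes, which share *Per1* with the list, had 7 of 15 higher and 3 lower, among them *Nr1d1*, which encodes the repressor REV-ERBα, at -1.57 (SE 0.21) and the output factor *Tef* at 0.86 (SE 0.20). *Per2* is counted as higher both here and among the other glucocorticoid-responsive genes. *Nfil3*, which was not called, is in the clock list and in that of other immediate-early genes. By genotype, 2 of the 45 other immediate-early genes were called, *Dusp5*, a phosphatase of ERK, with a difference of -0.46, and the cytokine gene *Il6*, which was below the dim limit in all hearts, at 4.55 to 5.28, and 1 clock gene, the output factor *Hlf*, with -0.74. None of the other glucocorticoid-responsive, heat shock, hypoxia or upstream genes was called by genotype. Over all probe sets, 5.45% were called by genotype.

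Markers of the cells in the heart were read beside these results. Over all probe sets, 6.33% were called between the series and 5.45% between the genotypes. Between the series, 0 of 10 cardiomyocyte, 0 of 8 smooth muscle and pericyte and 0 of 8 macrophage markers were called. *Tcf21* was called lower among 7 fibroblast markers (-0.72, SE 0.20), and *Flt1* higher (0.63, SE 0.19) and *Kdr* lower (-0.59, SE 0.18) among 9 endothelial markers. The mean level of the fibroblast list was 12.57 to 12.89 in series 27xx and 12.43 to 12.62 in series 32xx, and that of the endothelial list 12.31 to 12.47 and 12.35 to 12.38. All 7 neutrophil markers and 6 of 7 markers of T and B cells were below the dim limit, with *Cd79b* (-0.56, SE 0.21) and *Ms4a1* (-0.68, SE 0.18) of the latter called lower, and *Alas2* was called higher (0.58, SE 0.20) as 1 of 2 red blood cell markers. Between the genotypes, *Col1a1* (0.81, SE 0.19) and *Col3a1* (0.64, SE 0.24) were called higher in KO hearts among the 7 fibroblast markers, while *Tcf21* (-0.42, SE 0.29), *Gsn* (-0.27, SE 0.19) and *Dcn* (-0.04, SE 0.15) had lower means without a call, and the list's mean was 12.43 to 12.62 in HET and 12.53 to 12.89 in KO hearts. Of the other markers, the macrophage gene *C1qa* was called higher in KO hearts (0.35, SE 0.15), and *Retnlg* of neutrophils was called higher and *Cd3e* of T cells and *Retn* of white fat lower, these 3 below the dim limit. The atrial list had mean levels of 9.75 to 11.04 in series 27xx and of 9.14, 10.89 and 13.78 in series 32xx, and the brown fat list 9.75 to 9.79 and 9.69 to 10.69. In heart 3294, 5 of 7 brown fat markers were highest, *Ucp1* by far the most and *Cidea* and *Dio2* not, and 3 of 6 white fat markers, with *Adipoq* at 7.78 against 5.14 to 5.99 elsewhere and *Cidec* at 7.35 against 5.08 to 6.39. The part of these cells in the levels of the 39 genes was not tested. Without heart 3294, in which the atrial genes, *Ucp1*, *Adipoq* and *Cidec* were high, the differences between the series changed by unequal amounts. Those of *Ddit4*, *Depp1* and *Nfkbia* went from 2.89, 2.11 and 1.66 to 2.82, 2.08 and 1.64. Those of *Klf15*, *Ier3* and *Cebpb* went from 0.59, 0.53 and 0.54 to 0.30, 0.33 and 0.34.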

How the data were processed

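Hearts of 3 *Col1a2+/-* and 3 *Col1a2-/-* mice were measured on Clariom S Mouse arrays after Trizol extraction and labeling with a 3′ IVT Pico kit. Per probe set, the authors deposited a log2 signal that their array software had normalized and summarized. Affymetrix Expression Console is named in the submitters' processing notes and Transcriptome Analysis Console in the methods. The version, the normalization method and the genome build are not given in the sources used here. Of 28846 rows, 6640 control probe sets were left out and 22206 were tested, of which 2634 had no symbol in the platform annotation. The number of arrays limits the precision. Each p-value of limma sets a difference against the spread between these hearts, with the variance of a probe set moderated by that of all probe sets.

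KO was compared with HET by lmFit and eBayes of limma 3.58.1 in R 4.3.3 without covariates (4 residual degrees of freedom), and series 32xx with 27xx with genotype as a covariate (3 residual degrees of freedom). Adjusted p-values follow Benjamini and Hochberg and cover all 22206 probe sets. "Called" stands for an unadjusted p under 0.05 in the fit across all probe sets. The series were read from the animal numbers in the titles. The 39 genes, the other gene lists and the tests were chosen with earlier results of these data known. All 39 genes are described, with the level in every heart where the range was at least 1, the hearts did not overlap between genotypes or series, or the gene was called. From the other pathway lists, up to 4 genes per comparison with the smallest p under 0.05 are named. Where a gene had several probe sets, the one with the highest mean was used, and 38 of the 39 genes had 1.

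As alternatives, arrays were quantile normalized or centred on their medians, dim probe sets were left out, and eBayes was run with a trend and robust prior. Others were arrayWeights, the mean of all probe sets of a gene, Student's t-test, the series as a block, no genotype covariate and leaving out each heart. The code was tested on simulated data. Promoter motifs were searched with Python 3.11.15 and figures drawn with matplotlib 3.10.9.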

Additional observations from a re-analysis of the deposited data

How the results depend on the processing

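The differences between the series of the 16 genes called kept their direction under all alternatives run. Among genes not called, *Klf15* by series lay between -0.05 and 1.22 when each heart was left out, and *Cdkn1a* by genotype between -0.82 and 0.28. The median over the 39 genes by genotype lay between -0.24 (without heart 2769) and -0.03 (without heart 3294) when each heart was left out, and was -0.04 with the series as a block. The count of the 39 genes called by genotype was 0 in the main comparison, 1 (*Dusp1*, lower) with a trend and robust prior, 4 with the series as a block, and 0 to 9 when each heart was left out. The count of probe sets past an adjusted p of 0.05 by genotype was 1 in the main comparison. It was 2 with the filter on dim probe sets, 2 with a trend and robust prior and 0 with Student's t-test. When each heart was left out it was 0 to 4.

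The median over the 39 genes by series was 0.36, 0.43 with the filter on dim probe sets, which leaves 37 of them, and 0.30 (without heart 2769) to 0.39 (without heart 2770) when each heart was left out. The count called by series was 16, 19 with a trend and robust prior or without the genotype covariate, and 12 to 19 when each heart was left out. The count of probe sets past an adjusted p by series was 0 in the main comparison and whichever heart was left out, 2 with arrayWeights (*Zfp36* and *Ddit4*), 3 with the filter on dim probe sets and 3 without the genotype covariate (*Zfp36*, *Nfkbia* and *Ddit4* in both), and 33 with a trend and robust prior, 7 of them among the 39 genes. The cause was not tested. For the 24 genes given with the level in every heart, 642 values under the alternatives moved by less than 1 SD of the hearts and 6 by more. All 6 were by series with a heart left out. The SD is that within the groups compared, so by genotype it takes in the series difference and is wide. *Ddit4* by genotype went from -1.16 to -0.19 with the series as a block and still counts as moved by less than 1 SD. The count thus does not show that the genotype differences were stable. No paired analysis was made because the titles carry unique animal numbers and no replicate numbers, so the hearts of each genotype were numbered in accession order only. The methods state that comparisons were between littermates of matched age, but the labels name no litter. Within series 32xx, the number 3294 lies further from 3200 and 3201 than these lie from each other. The series block above compares hearts within a series and pairs none of them. Signals of *Fos* and *Socs3* lie below the dim limit, so changes of these genes may not be detectable on this array.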

Other observations

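Outside the gene lists, the probe sets with the smallest p between the animal-number series included several other genes with a symbol, chosen after their values were seen. *Arrdc2*, an arrestin-domain gene, was at 6.30, 7.14 and 7.03 in hearts 2769, 2767 and 2770 and at 8.77, 9.50 and 8.73 in hearts 3201, 3294 and 3200. All 3 hearts of series 32xx were higher, with a log2 difference of 2.24 (SE 0.31). *Bcl2l1*, which encodes the survival factor BCL-XL, differed by 1.55 (SE 0.22), *Rgcc*, a regulator of the cell cycle, by 1.59 (SE 0.25), and *Wee1*, a kinase that holds cells before mitosis, by 1.36 (SE 0.22). *S1pr1*, the endothelial receptor of sphingosine 1-phosphate, differed by 1.29 (SE 0.21) and the transporter gene *Slc10a6* was at 6.58 to 6.98 in series 32xx and below the dim limit of 5.97 in series 27xx. In the other direction, the transporter gene *Slc41a3* was at 11.95, 12.13 and 11.58 in hearts 2769, 2767 and 2770 and at 10.63, 10.62 and 10.61 in hearts 3201, 3294 and 3200, and *Klhdc8a* differed by -1.23 (SE 0.20). The 3 hearts of series 32xx were nearly equal for *Slc41a3* and lay below all others. None of these genes passed an adjusted p of 0.05 from limma.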
